A study of Glycine max with 14 samples.

Results

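The 8 gene loci described here encode fatty acid desaturases of soybean (Glycine max) and were chosen by identifier from the first column of the deposited files. They are 3 stearoyl-ACP desaturases (SACPD-A, Glyma07g32850; SACPD-B, Glyma02g15600; SACPD-C, Glyma14g27990), 2 FAD2-1 oleate desaturases (FAD2-1A, Glyma10g42470; FAD2-1B, Glyma20g24530) and 3 FAD3 linoleate desaturases (FAD3A, Glyma14g37350; FAD3B, Glyma02g39230; FAD3C, Glyma18g06950). Together they hold 13 of the 78773 gene models and 8 of the 69145 loci in the files. The files pair no identifier with a gene name, so the names are an assumption from general knowledge of published soybean identifiers. As a partial check, the RefSeq gene table (assembly Glycine_max_v4.0) was searched for symbols of the same family on the chromosome that each identifier names, and it held one for all 8.

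RNA was sequenced from cotyledons, the storage leaves of the embryo, of germinating seedlings of the cultivar Williams grown in a greenhouse, with 14 libraries from 7 stages and 2 biological replicates per stage. No group carried a transgene, mutation or treatment according to the labels. Stage 1 was sampled 1 day after the seed took up water. The later samples were taken on days counted from planting, 2 for stage 2, 2 to 3 for stage 3, 3 to 4 for stage 4, 4 to 5 for stage 5, 5 to 6 for stage 6, and 6 to 7 for stage 7. The series title names the change of the cotyledon into the first working leaf of the seedling as its subject. The sources used here do not give whether replicates came from separate plantings or how many seedlings made up each, and p-values measure the spread between these samples, which may be partly technical.

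Plant fatty acids are made in the plastid, where the soluble stearoyl-ACP desaturases place the first double bond in stearate to give oleate. FAD2 enzymes of the endoplasmic reticulum turn oleate into linoleate, and FAD3 enzymes of the same membrane turn linoleate into linolenate, while FAD7 and FAD8 carry out the last step on plastid membranes. In soybean, SACPD-A and SACPD-B are known as broadly expressed copies, whereas SACPD-C and the FAD2-1 pair are known for their part in the oil of the developing seed. The FAD2-2 genes are the housekeeping counterparts of FAD2-1, and FAD3A is the FAD3 copy with the greatest known effect on linolenate in seed oil.

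Values are RPKM, the reads on a gene model scaled by its length and by the read total of its library, so levels can be compared between genes. The read totals behind the RPKM values were 83.9 to 131 M per library (M, reads in units of 1e+06), summed over all gene models. Splice models of a locus held nearly the same reads, with 340, 339, 349, 341 and 341 reads at the 5 FAD2-1B models in stage 1 replicate 1. A read can thus count more than once, and these totals are not numbers of sequenced reads. The stage 1 replicates stood apart from each other, with a correlation across tested models of 0.803 against 0.945 to 0.963 at the other stages, and 31.9% of tested models differed at least 2-fold on the log2(RPKM + 1) scale between them against 3.47% to 6.74%. On that scale 5 of the 8 desaturase loci differed at least 2-fold between the stage 1 replicates. The summed level of 5 glycinins, seed storage proteins, was 228 and 209 RPKM at stage 1 and 4.05 and 3.34 RPKM at stage 7. The summed level of 3 Rubisco small subunits, markers of green tissue, was 45.4 and 109 RPKM at stage 1, 5637 and 12537 RPKM at stage 4 and 41234 and 37341 RPKM at stage 6. Among them, Glyma19g06340 and Glyma19g06370 held nearly equal reads, 1859 and 1893 in stage 1 replicate 1, so this sum may count reads more than once. A seed coat peroxidase (Ep, Glyma09g02600) had stage means of 8.04, 25.3, 40.3, 44.4, 51.5, 15.4 and 11.2 RPKM from stage 1 to stage 7 (adjusted p = 0.00246 over the stages, in limma's moderated F test described below). The 4 leghemoglobins of the root nodule summed to at most 0.037 RPKM.

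Copies within each desaturase family followed different courses. SACPD-C and both FAD2-1 copies had their highest means at stage 1, 100 RPKM for SACPD-C but only 1.26 RPKM for FAD2-1A and 3.00 RPKM for FAD2-1B, and none of the 3 exceeded 0.335 RPKM in a library of stage 5 or 6. SACPD-A and SACPD-B stayed within a narrow range from stage 2 to stage 5 and were lower at stage 7, FAD3A and FAD3B were highest at stages 4 and 5, and FAD3C was highest at stages 5 and 6. Because whole cotyledons were sampled, fewer cells of a type and less RNA per cell cannot be told apart.

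**Figure D1:**
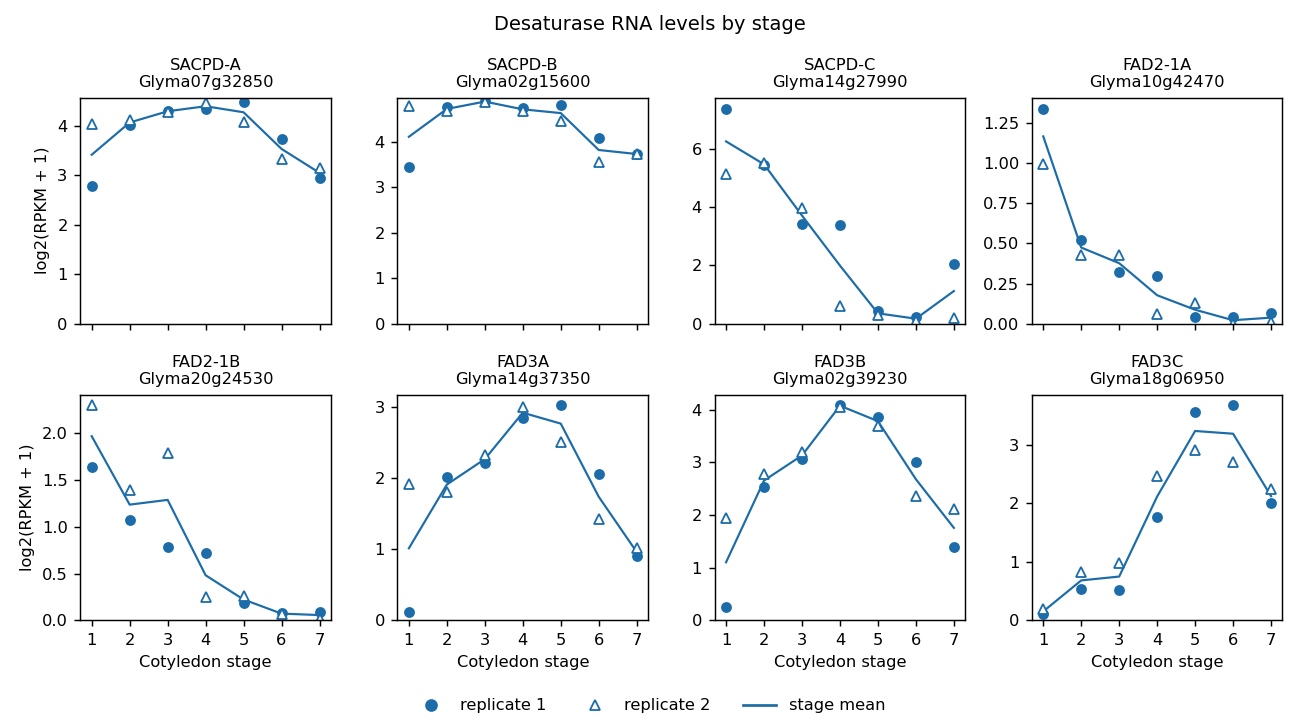
RNA level of the 8 desaturase loci (main gene model of each) as log2(RPKM + 1) on the vertical axis against cotyledon stage on the horizontal axis. Each panel has its own vertical scale, filled circles are replicate 1, open triangles are replicate 2 and the line joins the stage means. SACPD-C fell from 166 and 34.0 RPKM at stage 1 to 0.181 and 0.0647 RPKM at stage 6, and FAD3C went from 0.0767 and 0.149 RPKM to 11.8 and 5.51 RPKM.

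Among the stearoyl-ACP desaturases, SACPD-C changed most over the course. In replicates 1 and 2 it stood at 166 and 34.0 RPKM at stage 1, 42.4 and 44.3 RPKM at stage 2, 9.82 and 14.8 RPKM at stage 3, and 9.35 and 0.525 RPKM at stage 4. It was at 0.335 and 0.216 RPKM at stage 5, 0.181 and 0.0647 RPKM at stage 6, and 3.08 and 0.152 RPKM at stage 7. The first 3 stages lay above the later ones in every library, and at stages 1, 4 and 7 replicate 1 was well above replicate 2. In the order of stage means, 1, 2, 3, 4, 7, 5 and 6, the replicate ranges overlapped between stages 1 and 2, between 4 and 7, and between 7 and 5. The mean fell from 100 ± 93.7 RPKM at stage 1 (SD, n = 2) to 0.123 ± 0.0824 RPKM at stage 6, and the lowest library still held 11 reads on this model.

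SACPD-A and SACPD-B behaved as a pair. SACPD-A was at 5.93 and 15.5 RPKM at stage 1, 15.1 and 16.5 RPKM at stage 2, 18.9 and 18.5 RPKM at stage 3, 19.2 and 21.1 RPKM at stage 4, 21.4 and 15.8 RPKM at stage 5, 12.3 and 9.12 RPKM at stage 6, and 6.71 and 7.90 RPKM at stage 7. SACPD-B was at 9.91 and 26.7 RPKM at stage 1, 26.3 and 24.9 RPKM at stage 2, 28.9 and 28.6 RPKM at stage 3, 26.1 and 24.8 RPKM at stage 4, 27.2 and 21.1 RPKM at stage 5, 16.0 and 10.9 RPKM at stage 6, and 12.4 and 12.3 RPKM at stage 7. Both were low in stage 1 replicate 1 and in the stage 6 and 7 libraries, and SACPD-B was above SACPD-A in each of the 14 libraries. The stage 1 range was wide in either copy and overlapped those of stages 2, 6 and 7, and for SACPD-B those of stages 4 and 5 too. In the order of means the highest stages were 4 and 3 for SACPD-A and 3 and 2 for SACPD-B, with no overlap of ranges within either pair. The sources used here do not give how reads shared by such close copies were counted. Near equal reads on splice models of a locus show that a read can be counted on more than 1 model. The split between the copies and their sum are therefore uncertain.

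The make-up of stearoyl-ACP desaturase RNA therefore differed between early and late cotyledons. SACPD-C gave 91.3% and 44.7% of the summed RPKM of the 3 copies at stage 1, 50.6% and 51.7% at stage 2, 17.0% and 24.0% at stage 3, and 17.1% and 1.13% at stage 4. It gave 0.323% to 0.685% at stages 5 and 6, and 13.9% and 0.745% at stage 7. The summed level of the 3 copies was 182 and 76.1 RPKM at stage 1 and 22.2 and 20.3 RPKM at stage 7. SACPD-B was the most abundant copy in every library of stages 3 to 7.

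At stage 4, the log2(RPKM + 1) level of SACPD-C in replicate 2 minus that in replicate 1 was -2.76, and the libraries differed in the markers too. Rubisco small subunit RNA was 5637 RPKM in replicate 1 and 12537 RPKM in replicate 2, and the glycinins summed to 11.6 and 16.8 RPKM. FAD7-1, a plastid linoleate desaturase, was at 16.3 and 6.54 RPKM in the same libraries. The part of these differences in the SACPD-C values was not tested.

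The FAD2-1 pair, the seed oleate desaturases, had low levels from the start and was close to the detection limit by stage 6. FAD2-1B stood at 2.11 and 3.90 RPKM at stage 1, 1.11 and 1.63 RPKM at stage 2, 0.725 and 2.44 RPKM at stage 3, 0.645 and 0.185 RPKM at stage 4, 0.134 and 0.200 RPKM at stage 5, 0.0571 and 0.0457 RPKM at stage 6, and 0.0668 and 0.0140 RPKM at stage 7. FAD2-1A stood at 1.54 and 0.995 RPKM at stage 1, 0.435 and 0.346 RPKM at stage 2, 0.253 and 0.346 RPKM at stage 3, and 0.228 and 0.0404 RPKM at stage 4. It was at 0.0293 and 0.0948 RPKM at stage 5, 0.0289 and 0 RPKM at stage 6, and 0.0456 and 0.00639 RPKM at stage 7. Every library of stages 1 to 3 was above every library of stages 4 to 7 for both copies. Stage 3 replicate 2, which held more FAD2-1B than either stage 2 library, also held 99.4 RPKM of glycinin RNA against 22.8 RPKM in replicate 1.

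Read numbers put a limit on the late FAD2-1 values. FAD2-1A had 272 and 136 reads at stage 1, 5 and 0 reads at stage 6, and 6 and 1 reads at stage 7. FAD2-1B had 340 and 485 reads at stage 1, 9 and 6 reads at stage 6, and 8 and 2 reads at stage 7. A count of 0 allows up to 3 reads, worth 0.0146 to 0.0228 RPKM for FAD2-1A over the depths of these libraries, and this floor covers counting error only. Several of the late values are near that floor, so an order among stages 6 and 7 was not detectable at this depth.

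Among the other FAD2 copies, FAD2-2A, FAD2-2B and FAD2-2C went the opposite way, with their lowest means at stage 1 and highest at stage 6. FAD2-2C (Glyma03g30070), the most abundant FAD2 RNA, stood at 20.7 and 105 RPKM at stage 1, 111 and 133 RPKM at stage 2, 179 and 214 RPKM at stage 3, 238 and 273 RPKM at stage 4, 310 and 285 RPKM at stage 5, 403 and 203 RPKM at stage 6, and 280 and 234 RPKM at stage 7. FAD2-2B (Glyma19g32940) went from 6.06 and 47.9 RPKM at stage 1 to 218 and 141 RPKM at stage 6. Both were lower in each stage 1 library than in any library of a later stage. FAD2-2A (Glyma19g32930) lay between 0.147 and 2.58 RPKM. FAD2-2D (Glyma09g17170) never exceeded 0.133 RPKM or 17 reads in a library, and its course was not tested.

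As a share of the summed RPKM of the 6 FAD2 loci, the FAD2-1 pair gave 11.9% and 3.09% at stage 1, 0.847% and 0.938% at stage 2, and 0.0055% to 0.0285% at stages 6 and 7. FAD2-2C gave 56.6% to 70.8% in each library, and FAD2-2B gave 19.8% to 42.2%. Their summed level rose from 30.6 and 158 RPKM at stage 1 to 509 and 444 RPKM at stage 5. Even at stage 1, the FAD2 RNA of these cotyledons was thus mostly from the housekeeping copies.

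**Figure D2:**
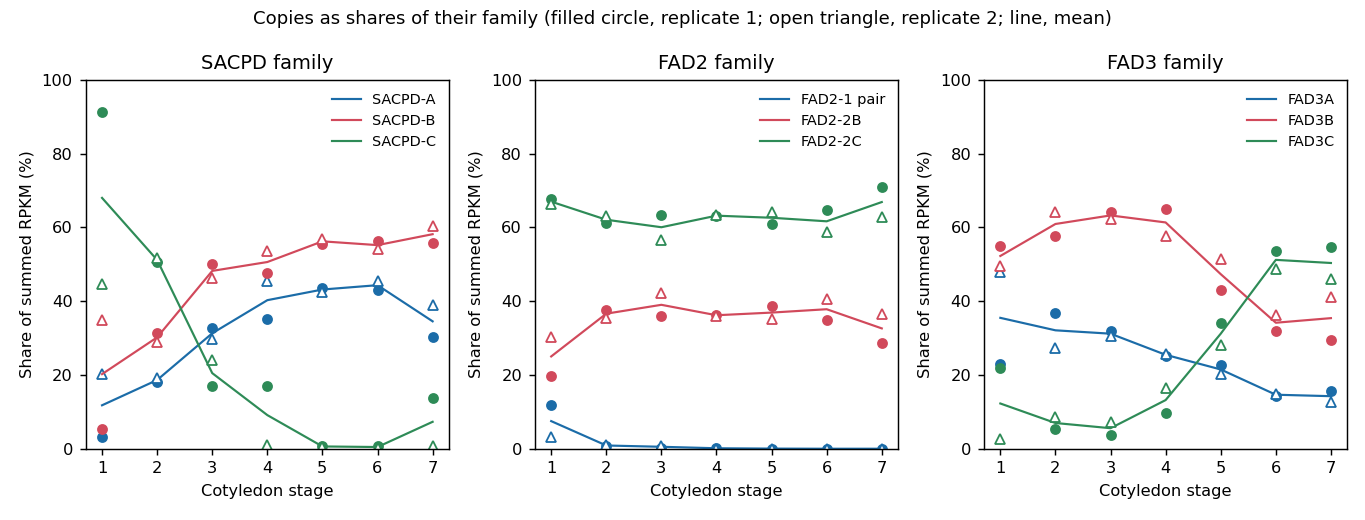
Share of each copy in the summed RPKM of its family, in percent, against cotyledon stage, for the 3 stearoyl-ACP desaturases, the FAD2 family and the 3 FAD3 loci. Filled circles are replicate 1, open triangles are replicate 2 and lines join the means, and FAD2-2A and FAD2-2D are counted in the FAD2 sum but not drawn. SACPD-C went from 91.3% and 44.7% at stage 1 to under 1% in the stage 5 and 6 libraries, while FAD3C went from 3.84% and 7.32% at stage 3 to 53.6% and 48.7% at stage 6.

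The FAD3 copies peaked in the middle of the course or after it. FAD3B, the most abundant of the 3 up to stage 5, stood at 0.192 and 2.87 RPKM at stage 1, 4.80 and 5.82 RPKM at stage 2, 7.32 and 8.20 RPKM at stage 3, 16.0 and 15.6 RPKM at stage 4, 13.6 and 11.9 RPKM at stage 5, 7.02 and 4.10 RPKM at stage 6, and 1.63 and 3.34 RPKM at stage 7. The replicates lay close together from stage 2 to stage 5, and stage 4 was above all other stages with no overlap. In the order of means, 4, 5, 3, 6, 2, 7 and 1, only stages 6 and 2 and stages 7 and 1 overlapped as neighbours.

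FAD3A, the copy best known from seed oil, had a similar course at a lower level. It stood at 0.0803 and 2.78 RPKM at stage 1, 3.06 and 2.49 RPKM at stage 2, 3.63 and 4.02 RPKM at stage 3, 6.19 and 6.99 RPKM at stage 4, 7.16 and 4.69 RPKM at stage 5, 3.15 and 1.69 RPKM at stage 6, and 0.865 and 1.03 RPKM at stage 7. The ranges of stages 4 and 5 overlapped, and both stage 7 libraries were below every other library but stage 1 replicate 1. That library held 13 reads of FAD3A and 31 reads of FAD3B, against 347 and 357 reads in stage 1 replicate 2. The seed coat peroxidase had a course of the same kind as FAD3A and FAD3B, with 46.6 and 42.2 RPKM at stage 4, 54.2 and 48.9 RPKM at stage 5 and 8.26 and 14.1 RPKM at stage 7, and its part in their values, or in those of SACPD-A and SACPD-B, was not tested.

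FAD3C was the late copy of the 3 FAD3 members. It stood at 0.0767 and 0.149 RPKM at stage 1, 0.451 and 0.776 RPKM at stage 2, 0.437 and 0.965 RPKM at stage 3, 2.42 and 4.50 RPKM at stage 4, 10.7 and 6.55 RPKM at stage 5, 11.8 and 5.51 RPKM at stage 6, and 3.01 and 3.72 RPKM at stage 7. Every library of stages 4 to 7 was above every library of stages 1 to 3. In the order of means, 5, 6, 4, 7, 3, 2 and 1, stages 5 and 6, stages 4 and 7 and stages 3 and 2 overlapped.

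FAD3C gave 22.0% and 2.57% of the summed RPKM of the 3 FAD3 loci at stage 1, 3.84% and 7.32% at stage 3, 34.1% and 28.3% at stage 5, 53.6% and 48.7% at stage 6, and 54.7% and 46.0% at stage 7. It was the most abundant FAD3 copy in all 4 libraries of stages 6 and 7. The 22.0% of stage 1 replicate 1 rests on 12 reads of FAD3C. The summed level of the 3 loci was 0.349 and 5.79 RPKM at stage 1, 31.5 and 23.2 RPKM at stage 5, and 5.50 and 8.09 RPKM at stage 7. A further FAD3 locus, FAD3D (Glyma11g27190), had its highest levels at stage 5, 2.75 and 1.67 RPKM, and was at 0.0393 and 0.0933 RPKM at stage 1. FAD3D had the same order of stage means as FAD3C and is not counted in these sums. How reads shared by FAD3C and FAD3D were counted is not given, so their courses may not be independent. In the RefSeq table the FAD3 gene on chromosome 11 has both FAD3C and FAD3D as synonyms, so these copy letters are uncertain.

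Splice models of a locus had nearly the same values in each library. The 4 further models of FAD2-1B had 0.853 to 0.996 times the RPKM of the main model in the 14 libraries, and the second FAD3A model had 0.814 to 0.984 times. The other 6 loci have 1 model each. Below, each locus is given by the model with the highest mean RPKM.

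For testing, log2(RPKM + 1) values of all 14 libraries were fitted together in limma, models that reached 1 RPKM in 2 or more libraries were kept, and p-values were adjusted by the Benjamini-Hochberg method over all 44450 tested models. A model was called at an adjusted p under 0.05 and, between stages, a log2 fold change of 1 or more in either direction. The 12 models of 7 loci passed the filter, and FAD2-1A did not. Over the 7 stages, limma's moderated F test called 6 of the 7 loci, against 58.0% of all tested models. The adjusted p was 0.0012 for SACPD-C, 0.0361 for SACPD-A, 0.003 for FAD2-1B, 0.019 for FAD3A, 0.00344 for FAD3B and 0.000315 for FAD3C, and it was 0.0754 for SACPD-B, which was not called. Most expressed models varied over the course, so this count does not set the desaturases apart.

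The F test call of SACPD-A was lost, with an adjusted p of up to 0.118, when either library of stage 2, 3, 4, 6 or 7, or stage 5 replicate 1, was left out, and also with no filter (0.0541) or upper quartile scaling (0.0523), or with values rescaled without a block of chromosome 13 models (0.0586). That of FAD3A was lost without stage 4 replicate 2 (0.0517) or stage 7 replicate 1 (0.0537), and with a pseudocount of 0.1 (0.0714). SACPD-B was called by limma when both stage 1 libraries were left out (0.00427). That fit called 29215 of all 44450 tested models over the stages, against 25762 with all 14 libraries.

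Between the ends of the course, stage 7 against stage 1, 1 of the 7 loci was higher and 2 were lower, against 18.4% and 16.6% of all tested models (35.1% in all). SACPD-C fell by 5.14 ± 0.898 on the log2 scale (SE, limma adjusted p = 0.00116) and FAD2-1B fell by 1.91 ± 0.32 (limma adjusted p = 0.000888). FAD3C rose by 1.97 ± 0.365 (limma adjusted p = 0.00161). On the RPKM scale, the stage 1 mean was 62.0 times the stage 7 mean for SACPD-C, and the stage 7 mean was 29.8 times the stage 1 mean for FAD3C. The libraries of the stages compared did not overlap in any of these 3 loci. With a pseudocount of 5 in place of 1, SACPD-C was still called and the other 2 were not, since the log2 fold change was then -0.66 for FAD2-1B (limma adjusted p = 0.00176) and 0.71 for FAD3C (0.0212), under the fold threshold.

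The other members had no clear difference between these ends. The log2 fold change was -0.37 ± 0.36 for SACPD-A, -0.38 ± 0.38 for SACPD-B, -0.05 ± 0.47 for FAD3A and 0.65 ± 0.468 for FAD3B (SE), with limma adjusted p-values of 0.278 to 0.938. The sign of each depended on which stage 1 library was kept. The median over the 7 tested loci was -0.37 against -0.12 over all tested models.

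FAD2-1A was tested in a fit of all models without the filter, where limma called it over the stages (adjusted p = 0.000773) and at stage 7 against stage 1, with a log2 fold change of -1.13 ± 0.117 (SE, limma adjusted p = 0.000123). Of the 67016 models in that fit, limma called 28057 over the stages and 15088 at stage 7 against stage 1. Its changes from stage 3 to stage 7 (-0.34) and from stages 2 and 3 to stages 5 and 6 (-0.37) did not reach the fold threshold on this scale, on which low levels can change little.

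Stage 7 against stage 3 leaves the uneven stage 1 pair out of the contrast. Here 1 of 7 loci was higher and 5 were lower, against 9.57% and 14.9% of all tested models (24.4% in all). FAD3C rose by 1.37 ± 0.365 (SE, limma adjusted p = 0.0178). The loci that fell were SACPD-C by 2.59 ± 0.898 (limma adjusted p = 0.048), FAD3B by 1.37 ± 0.468 (0.0447), SACPD-A by 1.25 ± 0.36 (0.0245), FAD2-1B by 1.23 ± 0.32 (0.0164) and SACPD-B by 1.16 ± 0.38 (0.0394). FAD3A, at -1.31 ± 0.47, had a limma adjusted p of 0.0539. The seed coat peroxidase fell in the same contrast by 1.80 ± 0.429 (SE, limma adjusted p = 0.0113), as did all 5 glycinins, while all 3 Rubisco small subunits rose, and their part in the desaturase values was not tested. The stage 3 mean was 2.56 times the stage 7 mean for SACPD-A, 2.33 times for SACPD-B and 4.03 times for FAD3A.

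These calls had little margin, and the number called among all tested models moved with the settings too. With all 14 libraries limma called 10859 of all 44450 tested models, and 20389 had an unadjusted p under 0.05. The number called among all tested models was lower when any library of stages 2 to 7 was left out. With stage 7 replicate 1 or 2 left out, limma called 0 of the 7 loci, though 5 and 6 had an unadjusted p under 0.05, and the count was 1 with either stage 3 library and 3 with any library of stages 2 and 5 left out. With a pseudocount of 5 limma called 0, with 7 at an unadjusted and 5 at an adjusted p under 0.05 but a smaller change in those 5. Of all tested models, 5454 were then called and 20741 had an unadjusted p under 0.05. On the recovered reads limma voom called 5, and 11917 of all tested models. Upper quartile scaling left FAD2-1B and FAD3C, with 9509 of all tested models called. No filter left these and SACPD-A, with 9912 of 67016 models called. With both stage 1 libraries left out, all 7 were called, FAD3A included, as were 12539 of all tested models.

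Stages 5 and 6 against stages 2 and 3 sets 4 libraries against 4. Among the 7 loci 1 was higher and 2 were lower, against 8.60% and 17.5% of all tested models (26.1% in all). FAD3C rose by 2.50 ± 0.258 on the log2 scale (SE, limma adjusted p = 6.83e-05), SACPD-C fell by 4.33 ± 0.635 (0.00049) and FAD2-1B fell by 1.11 ± 0.226 (0.00257). FAD3A at 0.16 ± 0.332, FAD3B at 0.34 ± 0.331, SACPD-B at -0.58 ± 0.268 and SACPD-A at -0.28 ± 0.254 were not called, and SACPD-A was above 0 under quantile normalization (0.09) and upper quartile scaling (0.15). FAD2-1B was not called without stage 3 replicate 2 (-0.86), with quantile normalization (-0.98), with upper quartile scaling (-0.99) or with a pseudocount of 5 (-0.34).

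**Figure D3:**
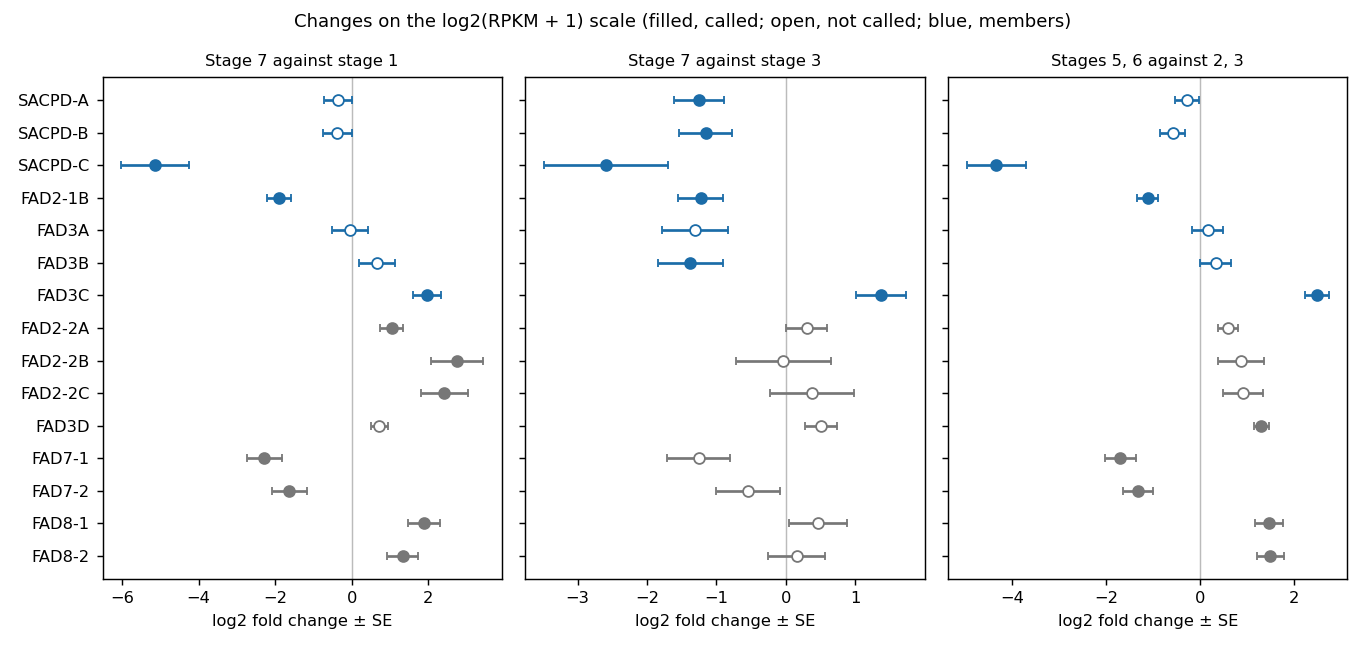
Log2 fold change with its standard error for 3 contrasts of stages, from the limma fit of log2(RPKM + 1) over 14 libraries. Blue marks the 7 tested desaturase loci, grey the other FAD2, FAD3, FAD7 and FAD8 loci, filled points were called and open points were not. SACPD-C lies at -5.14, -2.59 and -4.33 and FAD3C at 1.97, 1.37 and 2.50 in the 3 contrasts.

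No desaturase was called in any of the 6 steps between neighbouring stages, where 2.83% of all tested models were called in at least 1 step. At an unadjusted p under 0.05 limma found 3 loci in at least 1 step, FAD3B, FAD2-1B and FAD3C, and limma voom on the recovered reads called 0 and found 4 at that level. Of all 44450 tested models, 672 to 9886 reached that level in a single step by limma and 522 to 11665 by limma voom. How many of them reached it in at least 1 step was not counted. The largest step of FAD3C was from stage 3 to stage 4, with a log2 fold change of 1.37 ± 0.365 (SE, limma adjusted p = 0.171). Without stage 1 replicate 2, 4 loci were called as higher at stage 2 than in the remaining stage 1 library, with log2 fold changes of 1.28 for SACPD-A, 1.29 for SACPD-B, 1.80 for FAD3A and 2.40 for FAD3B, in a step in which 24.5% of all tested models were then called as higher. The lone stage 1 library is assumed in that fit to vary like the other stages.

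To compare copies within each library, the log2 ratio of (RPKM + 1) values of a pair of copies was tested over the 7 stages for 8 ratios. The test was an exact permutation test over all 135135 ways to part the 14 libraries into 7 pairs. Seed copies were set against housekeeping copies only in SACPD-C/SACPD-A, SACPD-C/SACPD-B and FAD2-1B/FAD2-2C. The remaining ratios paired SACPD-A with SACPD-B, FAD2-1A with FAD2-1B, and the FAD3 members with each other. Of the 8 ratios, 6 had an adjusted p under 0.05. The added 1 keeps some library scaling in these ratios and bounds them where a copy is low. Plain RPKM ratios, in which library scaling cancels, could be tested for the 7 pairs with no 0, and the same 6 had an adjusted p of 0.0353 or lower (exact permutation test). The seed copy SACPD-C differed in its course from both housekeeping copies. Its RPKM was 28.1 and 2.20 times that of SACPD-A at stage 1, 2.80 and 2.69 times at stage 2, 0.52 and 0.803 times at stage 3, 0.487 and 0.0249 times at stage 4, and 0.00709 to 0.0157 times at stages 5 and 6. The mean log2 ratio went from 2.84 at stage 1 to -3.93 at stage 5 (exact permutation p = 0.00759, adjusted 0.0149). Against SACPD-B the mean log2 ratio went from 2.14 to -4.29 over the same stages (exact permutation p = 0.00855, adjusted 0.0149). As SACPD-C is below 1 RPKM at stages 5 and 6, these ratios there mostly follow the other copy. The mean log2 ratio of plain RPKM to SACPD-A was 2.97 at stage 1, -6.09 at stage 5 and -6.61 at stage 6. To SACPD-B it was 2.21, -6.47 and -6.93.

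The housekeeping copies kept a closer ratio to each other, with SACPD-A at 0.541 to 0.849 times the RPKM of SACPD-B. The mean log2 ratio was -0.70 at stage 1, -0.29 at stage 6 and -0.69 at stage 7 (exact permutation p = 0.0191, adjusted 0.0255). This small shift was lost, with an adjusted p of up to 0.0602, when stage 1 replicate 2, either library of stage 3 or 5, or stage 6 replicate 2 was left out.

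FAD2-1B was tested against FAD2-2C, the most abundant housekeeping copy. It had 0.102 and 0.0372 times the RPKM of FAD2-2C at stage 1, 0.00405 and 0.0114 times at stage 3, and 6.01e-05 to 0.000239 times at stages 6 and 7. The mean log2 ratio went from -3.62 at stage 1 to -8.09 at stage 6 (exact permutation p = 0.000969, adjusted 0.00776), the lowest p of the 8 ratios. As FAD2-1B is then far below 1 RPKM, this value at stage 6 mostly follows FAD2-2C, and the mean log2 ratio of plain RPKM went from -4.02 at stage 1 to -12.5 at stage 6 and -13.0 at stage 7 (exact permutation p = 0.000207, adjusted 0.00145). FAD2-1A had 0.142 to 0.728 times the RPKM of FAD2-1B in the 13 libraries in which it had reads, and their ratio over the stages did not pass the test (exact permutation p = 0.183, adjusted 0.183).

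Among the FAD3 members, FAD3C separated from FAD3A and FAD3B, while FAD3D was not set against it. FAD3B had 2.50 and 19.2 times the RPKM of FAD3C at stage 1, 16.7 and 8.50 times at stage 3, 1.26 and 1.82 times at stage 5, and 0.54 to 0.898 times at stages 6 and 7. The mean log2 ratio went from 2.38 at stage 3 to -0.51 at stage 6 (exact permutation p = 0.00934, adjusted 0.0149). For FAD3A over FAD3C it went from 1.52 at stage 3 to -1.45 at stage 6 (exact permutation p = 0.00593, adjusted 0.0149).

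FAD3A had 0.31 to 0.969 times the RPKM of FAD3B, and their ratio did not pass the test (exact permutation p = 0.0597, adjusted 0.0683). Without stage 5 replicate 1, the SACPD-C ratios and those of FAD3A and FAD3B over FAD3C each had an adjusted p of 0.0509 in the exact permutation test.

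**Figure D4:**
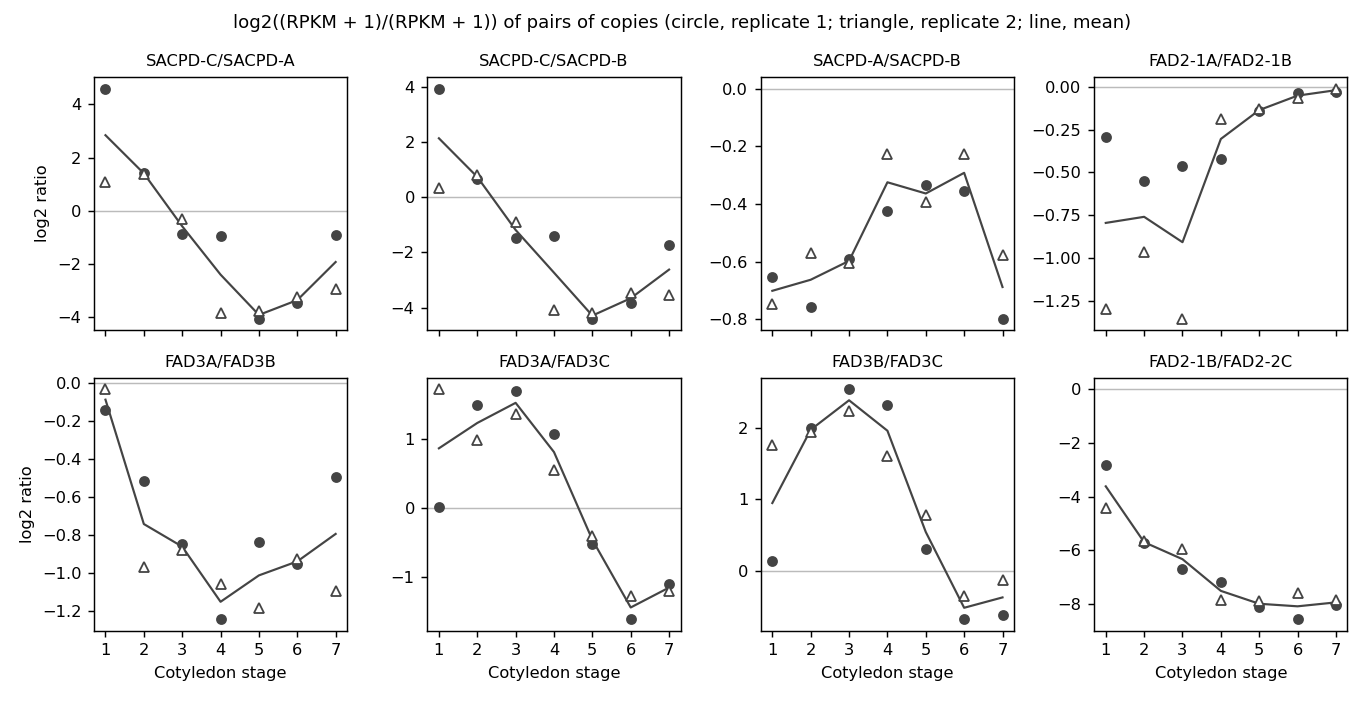
Log2 ratio of the (RPKM + 1) values of 8 pairs of copies against cotyledon stage, with circles for replicate 1, triangles for replicate 2 and lines for the mean. Each panel has its own scale and a grey line at 0 where the copies are equal. The mean SACPD-C/SACPD-A ratio went from 2.84 at stage 1 to -3.93 at stage 5, while SACPD-A/SACPD-B stayed between -0.70 and -0.29.

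The other membrane-bound desaturases also split between copies. Of the 4 FAD2 loci outside the seed pair, 3 passed the filter, and all 3 rose from stage 1 to stage 7, FAD2-2B by 2.75 ± 0.687 (SE, limma adjusted p = 0.00811), FAD2-2C by 2.42 ± 0.607 (0.00834) and FAD2-2A by 1.04 ± 0.298 (0.0157). Of all tested models, 18.4% were called as higher between these ends. None of the 3 was called in stage 7 against stage 3 or in stages 5 and 6 against stages 2 and 3 (24.4% and 26.1% of all tested models). FAD3D was called in the last of these contrasts, with a log2 fold change of 1.31 ± 0.159 (limma adjusted p = 0.000167), the same direction as FAD3C.

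The plastid desaturases FAD7-1 (Glyma18g43210) and FAD7-2 (Glyma07g18350) fell from stage 1 to stage 7 by 2.29 ± 0.456 and 1.63 ± 0.461 (SE, limma adjusted p = 0.0024 and 0.0148), and FAD8-1 (Glyma01g29630) and FAD8-2 (Glyma03g07570) rose by 1.88 ± 0.422 and 1.33 ± 0.408 (0.00465 and 0.0223). The same 4 loci were called with the same signs in stages 5 and 6 against stages 2 and 3. Of all tested models, 35.1% were called in the first of these contrasts and 26.1% in the second. FAD7-1 was at 40.4 and 17.3 RPKM at stage 1 and 2.32 and 2.21 RPKM at stage 6. FAD8-2 was at 3.50 and 9.97 RPKM at stage 1 and 47.8 and 33.8 RPKM at stage 5.

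Enzymes that feed or drain the stearoyl-ACP desaturase step were followed at 6 loci, of which limma called 4 over the 7 stages, against 58.0% of all tested models. It called 2 as higher at stage 7 than at stage 1 (18.4% of all tested models) and 1 as lower at stage 7 than at stage 3 (14.9%). Between stages 5 and 6 and stages 2 and 3 it called 0 (26.1% of all tested models), with 1 at an adjusted p under 0.05 but a smaller change. These small counts do not set the 6 loci apart. KASII-A (Glyma17g05200) and KASII-B (Glyma13g17290), which elongate palmitate to stearate, rose from stage 1 to stage 7 by 1.90 ± 0.446 and 2.26 ± 0.447 on the log2 scale (SE, limma adjusted p = 0.00587 and 0.0023). FATB1-A (Glyma05g08060), a thioesterase that releases saturated fatty acids, was at 149 and 23.1 RPKM at stage 1 and between 10.7 and 25.3 RPKM in all later libraries. FATB1-B (Glyma17g12940) was at 86.1 and 17.2 RPKM at stage 1, and neither was called over the 7 stages by limma (adjusted p = 0.0601 and 0.0739). Like SACPD-C, both were far higher in stage 1 replicate 1 than in replicate 2. FATA-A (Glyma18g36130), assigned to the thioesterases that release oleate, had its highest mean at stage 5 (16.7 and 13.5 RPKM) and fell from stage 3 to stage 7 by 1.14 ± 0.362 (SE, limma adjusted p = 0.0348). FATB and FATA names rest on the same assumption as the others, and for the FATA identifiers the RefSeq table gave no partial check.

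**Figure D5:**
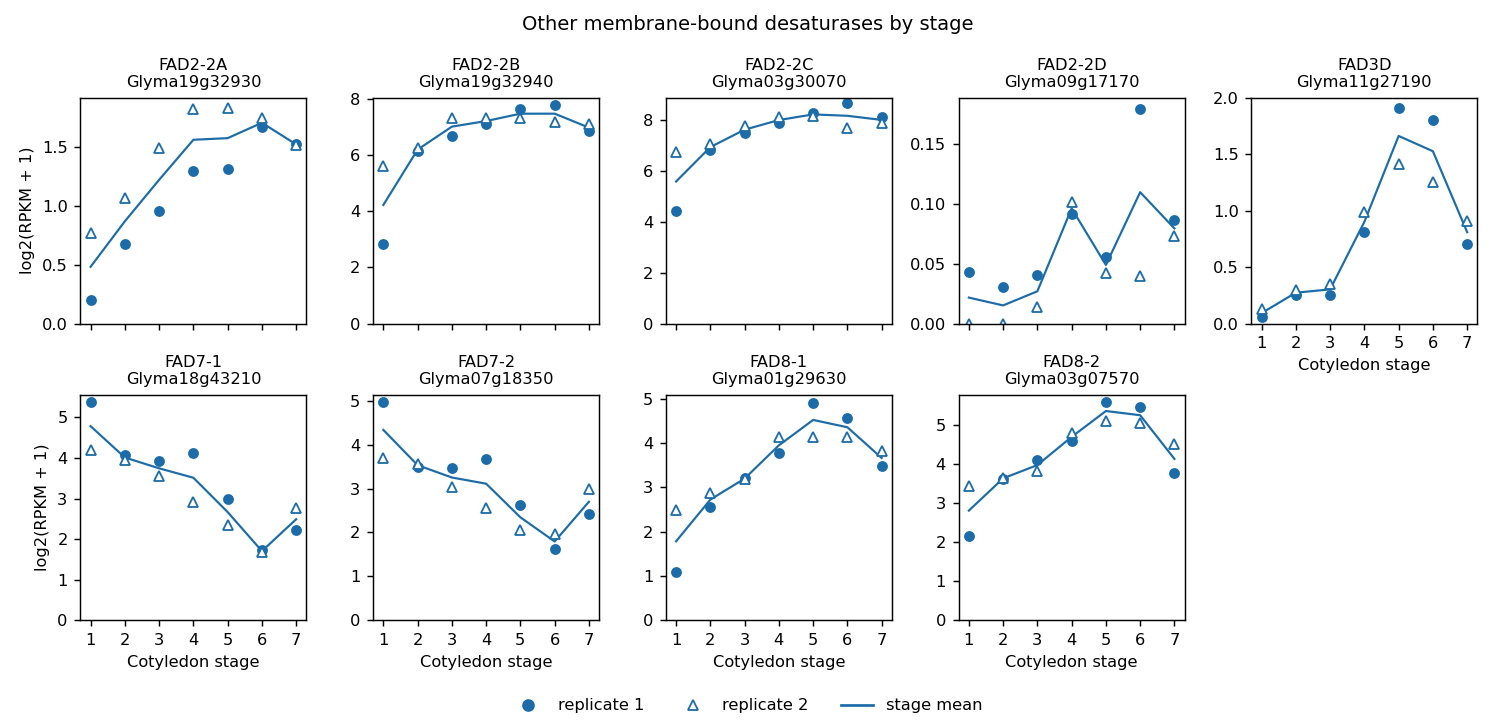
RNA level of 9 other membrane-bound desaturase loci as log2(RPKM + 1) against cotyledon stage, each panel with its own vertical scale. Filled circles are replicate 1, open triangles are replicate 2 and the line joins the stage means. FAD2-2C rose from 20.7 and 105 RPKM at stage 1 to 403 and 203 RPKM at stage 6, while FAD7-1 fell from 40.4 and 17.3 to 2.32 and 2.21 RPKM.

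For each member, the most similar course among 22487 models at other loci was named by Pearson's r of log2(RPKM + 1) over the 14 libraries, as a description only. All 14 points share library scaling and the steep course from stage 1 to stage 6. The most similar models were Glyma05g08400.1 for SACPD-C (r = 0.997), Glyma13g43180.1 for SACPD-B (r = 0.990) and Glyma08g02780.3 for SACPD-A (r = 0.983). For FAD2-1A and FAD2-1B they were Glyma02g08400.1 (r = 0.988) and Glyma09g18830.1 (r = 0.962). For the FAD3 copies they were Glyma17g09160.3 for FAD3A (r = 0.985), Glyma11g10770.2 for FAD3B (r = 0.989) and Glyma05g38220.1 for FAD3C (r = 0.982).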

How the data were processed

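RNA sequencing of 14 cotyledon libraries was used. The authors deposited 1 RPKM value per gene model and library, per the file headers. Bowtie was the aligner, per the submitters' processing notes. The sources used here do not give the genome build, annotation, strandedness or how reads matching several models were counted. Models of a locus held nearly the same reads, so sums and shares of close copies may count a read more than once. The desaturases and the gene lists were chosen with earlier results of these data known. Named genes are every model of the 8 loci, every identifier of the pathway and marker lists, and the most similar model for each member (mean of at least 5 RPKM).

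Whole reads were recovered from the steps of the RPKM values, within 0.003 reads or 1e-08 of the number, for 100% of 65780 models above 0 in at least 3 libraries. Totals, summed over all models with each splice model counted, were 83.9 to 131 M reads. Shares and floors cover counting error only. Tests used limma 3.58.1 (R 4.3.3, statmod 1.5.0) on log2(RPKM + 1), with a mean per stage, trended and robust moderation and two-sided p-values. This scale understates changes of low genes, and the pooled spread includes the uneven stage 1 pair. Ratios of copies used a two-sided exact permutation test, with Benjamini-Hochberg adjustment over the 8 ratios. Both tests were tested on simulated data. Alternatives covered the pseudocount, filter, scaling, a fit to recovered reads, a replicate block, other models of a locus and left-out libraries. The alternatives that leave out both stage 1 libraries or rescale without a chromosome 13 block, and the ratios with no pseudocount, were chosen after seeing the data.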

Additional observations from a re-analysis of the deposited data

How the results depend on the processing

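SACPD-C and FAD3C kept their direction in all 3 contrasts of stages under each alternative run. Stage 7 against stage 1 gave 1 called locus with a pseudocount of 5 in place of 3, with FAD2-1B and FAD3C lost. Of all tested models, 8044 were then called in place of 15596. Stage 7 against stage 3 gave 0 with a pseudocount of 5, 3 with no filter and 2 with upper quartile scaling, in place of 6. Over all tested models these settings called 5454, 9912 (of 67016) and 9509, in place of 10859. The FAD3A/FAD3B ratio had an exact permutation adjusted p of 0.0105 with a pseudocount of 5 and 0.0468 with the next model of the locus. With no pseudocount, no call among the 7 ratios that could be tested changed. The cause was not tested.

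With 1 library left out, the called loci numbered 4 to 7 over the stages, 3 to 4 in stage 7 against stage 1, 0 to 7 in stage 7 against stage 3, 2 to 3 in stages 5 and 6 against stages 2 and 3, and 0 to 4 in at least 1 step. Each of these fits leaves 1 library in a stage, and the number called among all tested models moved too. Over the stages and in stage 7 against stage 3, that number rose without either stage 1 library and fell without any other. These ranges of called loci therefore do not set the desaturases apart. The exact permutation adjusted p ranged from 0.00431 to 0.0509 for SACPD-C/SACPD-A, 0.0036 to 0.0509 for SACPD-C/SACPD-B, 0.0211 to 0.0602 for SACPD-A/SACPD-B, 0.0827 to 0.28 for FAD2-1A/FAD2-1B, 0.0211 to 0.195 for FAD3A/FAD3B, 0.00225 to 0.0509 for FAD3A/FAD3C, 0.0036 to 0.0509 for FAD3B/FAD3C and 0.0036 to 0.0364 for FAD2-1B/FAD2-2C.

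The sign turned in stage 7 against stage 1 for SACPD-A (0.26, range -0.99 to 0.26 over left-out libraries) and SACPD-B (0.29, range -1.05 to 0.29) without stage 1 replicate 2, and for FAD3B (-0.20, range -0.20 to 1.5) without stage 1 replicate 1. For FAD3A it turned with a pseudocount of 0.1 (0.54), upper quartile scaling (0.055), limma voom (1.09), without stage 1 replicate 2 (0.85) and without stage 7 replicate 1 (0.01), with a range of -0.96 to 0.85 over left-out libraries. In stages 5 and 6 against stages 2 and 3 SACPD-A turned with quantile normalization (0.091) and upper quartile scaling (0.15), which moved the median change of all tested models from -0.43 to -0.13 and -0.11.

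Replicate numbers are shared between stages, and replicate differences correlated above 0.1 in 18 of 21 pairs of stages (-0.17 to 0.60, median 0.27). The fits above had no replicate block, and whether libraries of the same replicate number share an effect was not tested. With a replicate block, limma called 6 loci over the stages and 3, 6 and 3 in the 3 contrasts, and the adjusted p was 0.0314 for SACPD-C/SACPD-A, 0.0302 for FAD2-1B/FAD2-2C and 0.0732 for FAD3A/FAD3B (exact permutation), with no call changed. Among all tested models the block raised the number called from 789 to 1419 at stage 2 against stage 1, and from 1 to 295 at stage 4 against stage 3. A block of 52 chromosome 13 models took 0.566% to 15.3% of reads. With values rescaled without it, limma called 5 loci over the stages and 3, 5 and 3 in the contrasts.

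Depth limits the late FAD2-1 values, where a library held as few as 0 reads of FAD2-1A and 2 of FAD2-1B.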
